A study of Homo sapiens with 8 samples.

Results

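RNA levels were compared between UWB1.289 ovarian cancer cells that had become resistant to PARP inhibitors and the parental cells they came from, both without functional BRCA1. UWB1.289 is an established human line from a high-grade serous ovarian carcinoma with a BRCA1 mutation. The comparison rests on 4 of the 8 libraries of the series: 2 of the parental UWB1.289 cells at passage 29 and 2 of the derivative Olres-UWB1.289 at passage 56. All cells grew in standard medium with no drug added, so the comparison shows lasting differences between the lines and no acute drug response. The members are the genes of the deposited count table, 32803 in all, of which 16221 had enough counts to be tested. The other 4 libraries came from the same line with BRCA1 restored (UWB1.289+BRCA1, passage 10, and its resistant derivative, passage 45), and they entered the fit for its estimate of spread and for 1 comparison of effects.

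The resistant cells were taken at a later passage than the parental cells, so resistance and time in culture cannot be told apart. The labels name neither the selecting drug nor its dose, and they do not say whether the derivative is a clone or a pool. The title of the second resistant library reads Olred where the first reads Olres, and its cell line label reads Olres-UWB1.289. Whether the replicates of a line were separate cultures is not said, so the p-values reflect only how far these particular libraries varied, and that variation may be technical.

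PARP1 and PARP2 are enzymes that bind DNA breaks and build chains of ADP-ribose there, which recruit repair proteins. PARP inhibitors block this activity and hold the enzymes on DNA, and the damage this leaves at replication forks is repaired by homologous recombination, for which BRCA1 is needed. Cells without BRCA1 are therefore sensitive, and known routes to resistance include loss of PARP1, restored recombination, stabilised forks, loss of the 53BP1 pathway that blocks end resection, and drug efflux.

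Depth ranged from 27534595 to 34394107 counts in the 4 deficient libraries, and 18794 to 19040 genes had a count. The PAX8 gene, a factor of the Mullerian lineage, stood at 227 and 209 CPM in the parental libraries and at 303 and 232 CPM in the resistant ones (CPM is the count scaled to a common library total, with TMM factors). MUC16, the gene of the CA125 antigen, stood between 212 and 253 CPM in all 4, while the serous marker WT1 was near 0, at up to 0.144 CPM. Of 10 leukocyte markers 3 were at 0 in every deficient library, and the summed level of the list was 24.2 and 25 CPM in the parental and 22.2 and 22.2 CPM in the resistant libraries. The summed level of 9 fibroblast markers, of which 2 were at 0, was 70.9 and 61.1 CPM in parental and 18.6 and 11.2 CPM in resistant libraries. COL1A2 made up 56.1 and 47.1 CPM of the parental sums, and the part of other cells in the results was not tested.

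The resistant libraries differed from the parental ones in a way that followed GC content. Across 13610 genes with a known transcript GC content, the log2 fold change rose with it (Spearman rho 0.508, a description across genes that do not count as independent replicates). The median log2 fold change was -0.253 in the fifth of genes with the lowest GC content (31.0 to 42.5%) and 0.841 in the fifth with the highest (58.5 to 74.2%). The trend also differed between the resistant libraries, and it was steeper in replicate 1. Its part in any single result was not tested, so each library's GC trend was removed with a spline in a further fit, after which rho was 0.0105. Below, a gene rose or fell only where the quasi-likelihood test of edgeR gave an adjusted p under 0.05 in the same direction in both fits, as counted and with the GC trend removed.

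**Figure D1:**
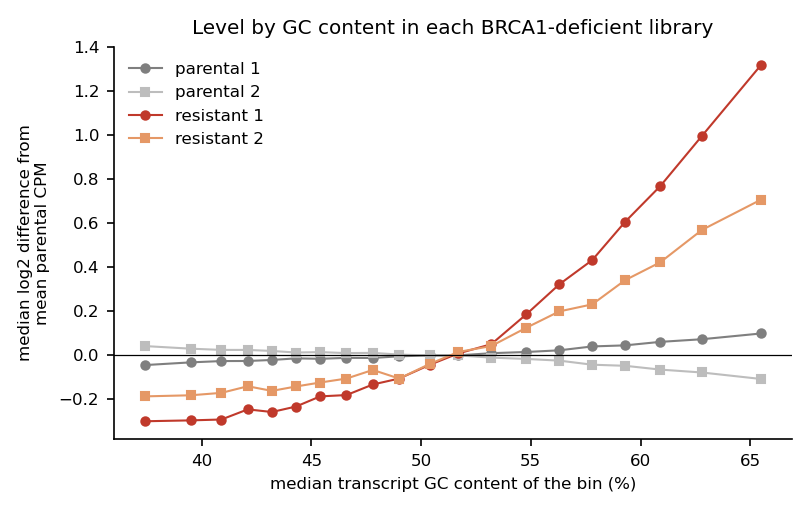
Each point is the median over 1 of 20 bins of genes, by transcript GC content in percent (x axis), of the log2 difference between a library's CPM and the mean parental CPM (y axis, pseudocount 0.5 CPM), for the 4 BRCA1-deficient libraries. In the bin of highest GC content the resistant libraries stand at 1.32 and 0.708 and the parental ones at 0.0998 and -0.107.

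In both fits 3367 genes rose (20.8% of those tested) and 3325 fell (20.5%), which is 41.3% in either direction. At a change of at least 2-fold in both fits, 993 genes rose (6.12%) and 954 fell (5.88%). As counted, 1985 genes rose at least 2-fold (12.2%) and 1197 fell (7.38%), whereas with the GC trend removed 1181 rose (7.28%) and 1217 fell (7.5%). Without resistant replicate 1 the rises as counted numbered 1310. The largest changes were genes that went from a clear level to none, or the reverse, and these are described first.

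**Figure D2:**
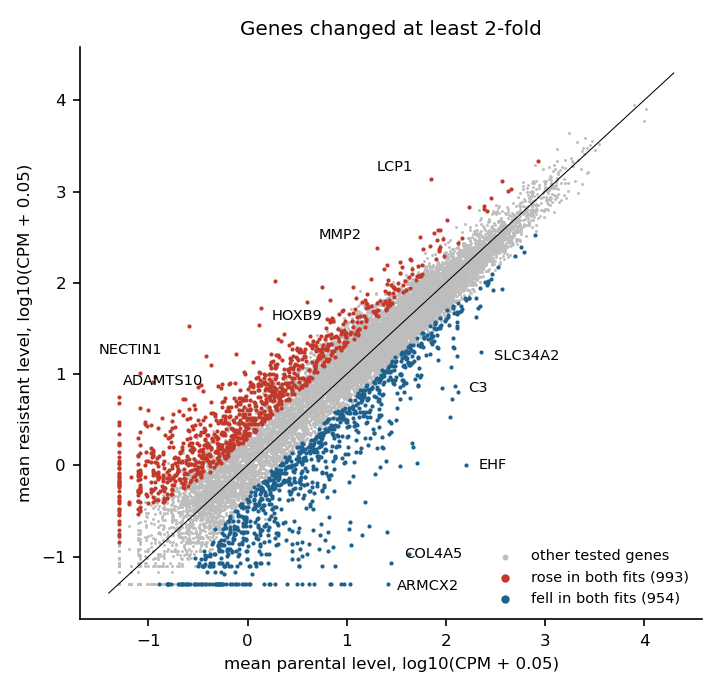
Each point is a tested gene, with its mean level in the 2 parental libraries (x axis) and the 2 resistant libraries (y axis), as log10 of CPM plus 0.05. The 993 genes that rose and the 954 that fell at least 2-fold in both fits are coloured, and genes with no counts in 1 group, such as ARMCX2 and ADAMTS10, lie along the edges of the cloud.

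Among protein-coding genes, 17 were switched off, meaning at most 3 counts over both resistant libraries and a parental mean of 2 CPM or more, and 9 of the 17 had no count at all. All 17 passed in both fits. COL4A5, which encodes a basement membrane collagen chain on chromosome X, had 29.4 and 27.2 CPM in the parental libraries and 0.072 and 0 CPM in the resistant ones, where 2 counts remained of 1839. Its level was 878-fold lower, with an exact 95% interval of 243 to 7260 for counting error. Levels in the 2 lines lay far apart, as the rule for switched genes required.

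ARMCX2, a gene of the ARMCX family on chromosome X, had 25.9 and 26.5 CPM in parental libraries and no count in either resistant library, a level at least 545-fold lower (against a floor of 3 counts over the group). ACSS3 on chromosome 12, a mitochondrial short-chain acyl-CoA synthetase, had 10.2 and 11.1 CPM against none, at least 222-fold lower. PHETA2 on chromosome 22, a gene of endosomal trafficking, had 8.22 and 9.41 CPM against none, at least 184-fold lower. Neither resistant library held a count of these 3 genes, and low resistant counts were a condition of the choice. HSPB6, a small heat shock protein gene on chromosome 19, kept 2 counts of 504 and was 241-fold lower (interval 66.3 to 1990). CLDN6, a tight junction gene that is normally embryonic, had 5.39 and 5.88 CPM and kept 2 counts, and was 176-fold lower (interval 48.5 to 1460).

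The other genes that were named among those switched off had parental levels between 2.83 and 7.97 CPM. DCAF12L1, PNMA8A, CSTA (cystatin A, a cysteine protease inhibitor), APBB1IP (an adaptor of integrin activation) and LIN28B (an RNA-binding protein that blocks let-7 maturation) had no count in either resistant library. Their levels were at least 146-fold, 139-fold, 97.1-fold, 85.3-fold and 73.6-fold lower, in that order. TRIM61 kept 3 counts and was 72.3-fold lower (interval 24.4 to 353). In the BRCA1-restored cells APBB1IP stood at up to 0.484 CPM and LIN28B at up to 0.167 CPM in any library.

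In the opposite direction 11 protein-coding genes were switched on, and 5 of them had no count in the parental libraries. NECTIN1, a cell adhesion molecule, had 0.0658 and 0 CPM in parental and 11.9 and 8.71 CPM in resistant libraries, 331-fold higher (interval 91.2 to 2740). ADAMTS10, a secreted protease of the fibrillin matrix, had no parental count and 6.66 and 4.37 CPM, at least 117-fold higher. SALL3, a zinc finger factor of development, went from no count to 4.93 and 4.54 CPM, at least 103-fold higher. Both resistant libraries held each of these genes, and both parental ones held at most 2 counts of any. The low parental counts were a condition of the choice.

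TRIM29 was 137-fold higher (interval 37.4 to 1130), and the forkhead factors FOXC2 and FOXF2 were 86.5-fold (29.3 to 422) and 61.8-fold (20.8 to 302) higher. KCNA2, a voltage-gated potassium channel, was 75.4-fold higher (20.5 to 628), and C4orf48 60.0-fold (20.2 to 294). ADGRB1, TUNAR and CD33 had no parental count and were at least 63.1-fold, 60.0-fold and 47.8-fold higher. CD33 is best known as a myeloid surface receptor, and its level in the resistant libraries was 1.98 and 2.37 CPM. C4orf48 differed most between the resistant libraries, with 4.29 CPM in replicate 1 and 1.53 CPM in replicate 2, and its transcript GC content is 73.9%.

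The sequences upstream of switched genes are shown to let their CpG content be read beside the loss or gain of the RNA. Promoters of 13 of the 17 genes switched off and 7 of the 11 switched on were found in the RefSeq table of build GRCh38.p14, whereas the submitters' processing notes name GRCh37. Over the 250 bases before the start, the observed over expected CpG ratio had a median of 0.643 in genes switched off and 0.845 in genes switched on, beside 0.812 over 11452 tested promoters. The 250 bases before the start are given 5′ to 3′ on the gene's own strand, with each CpG in capitals. Genes switched off were COL4A5 (chrX:108439588-108439837, plus strand), ARMCX2 (chrX:101659851-101660100, minus strand), HSPB6 (chr19:35757030-35757279, minus strand) and DCAF12L1 (chrX:126552815-126553064, minus strand).
COL4A5: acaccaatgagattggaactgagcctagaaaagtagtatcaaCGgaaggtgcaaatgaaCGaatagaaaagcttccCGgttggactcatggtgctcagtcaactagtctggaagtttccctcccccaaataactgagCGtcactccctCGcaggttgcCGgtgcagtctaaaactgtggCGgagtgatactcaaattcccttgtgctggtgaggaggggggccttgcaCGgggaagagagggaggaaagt
ARMCX2: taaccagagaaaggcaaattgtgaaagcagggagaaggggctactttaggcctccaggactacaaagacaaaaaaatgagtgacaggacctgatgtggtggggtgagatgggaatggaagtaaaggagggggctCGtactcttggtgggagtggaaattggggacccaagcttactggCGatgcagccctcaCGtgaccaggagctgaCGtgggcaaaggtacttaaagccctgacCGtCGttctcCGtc
HSPB6: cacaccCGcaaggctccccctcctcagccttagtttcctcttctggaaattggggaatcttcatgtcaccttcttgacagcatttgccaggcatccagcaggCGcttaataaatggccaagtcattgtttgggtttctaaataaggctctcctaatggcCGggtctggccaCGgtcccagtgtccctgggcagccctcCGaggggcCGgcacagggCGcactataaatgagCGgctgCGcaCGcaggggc
DCAF12L1: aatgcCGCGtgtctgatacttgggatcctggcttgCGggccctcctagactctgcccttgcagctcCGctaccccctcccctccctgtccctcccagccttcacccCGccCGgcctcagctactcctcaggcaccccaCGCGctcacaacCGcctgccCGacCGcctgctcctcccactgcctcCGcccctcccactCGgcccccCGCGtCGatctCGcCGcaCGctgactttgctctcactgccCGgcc
Genes switched on were ADAMTS10 (chr19:8610716-8610965, minus strand), SALL3 (chr18:78979568-78979817, plus strand) and C4orf48 (chr4:2041745-2041994, plus strand).
ADAMTS10: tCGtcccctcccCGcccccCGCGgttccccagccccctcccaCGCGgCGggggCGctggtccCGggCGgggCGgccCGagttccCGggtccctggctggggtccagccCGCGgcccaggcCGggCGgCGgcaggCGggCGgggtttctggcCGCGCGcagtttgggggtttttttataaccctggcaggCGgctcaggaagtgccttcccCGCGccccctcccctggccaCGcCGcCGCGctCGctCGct
SALL3: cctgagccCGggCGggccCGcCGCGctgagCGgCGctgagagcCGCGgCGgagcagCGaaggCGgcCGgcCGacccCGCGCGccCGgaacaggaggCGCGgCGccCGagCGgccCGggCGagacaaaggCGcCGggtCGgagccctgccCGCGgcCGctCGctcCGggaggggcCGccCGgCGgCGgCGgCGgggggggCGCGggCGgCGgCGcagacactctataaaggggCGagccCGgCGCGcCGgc
C4orf48: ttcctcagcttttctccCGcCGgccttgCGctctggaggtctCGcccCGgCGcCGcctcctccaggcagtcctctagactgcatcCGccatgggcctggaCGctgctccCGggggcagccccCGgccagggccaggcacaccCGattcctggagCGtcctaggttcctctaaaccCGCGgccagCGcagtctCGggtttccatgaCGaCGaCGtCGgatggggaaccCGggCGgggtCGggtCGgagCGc
COL4A5, ARMCX2 and HSPB6 hold 8, 7 and 10 CpGs, and DCAF12L1 holds 20. ADAMTS10 holds 32, C4orf48 holds 26 and SALL3 holds 49. The same measure was lower over the wider set of genes that fell at least 2-fold (median 0.624 over 653 promoters) than over those that rose (0.794 over 606), given here as a description without a test. Median promoter GC content was 60.4% in these falls and 68.0% in these rises, beside 64.8% over all tested promoters. Both sets had to pass as counted too, where the log2 fold change rose with transcript GC content, so the selection itself bears on this contrast.

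Among genes with at least 10 CPM in both lines, 117 rose and 137 fell at least 2-fold in both fits with no overlap between libraries. Libraries of the 2 lines did not overlap in 78.7% of all genes tested. LCP1, which encodes the actin-bundling protein L-plastin, had 70.0 and 72.1 CPM in parental libraries and 1315 and 1418 CPM in resistant ones. Its log2 fold change was 4.26 ± 0.08 (SE) as counted and 4.51 with the GC trend removed (edgeR adjusted p = 1.73e-10 and 3.72e-21). MMP2, a secreted gelatinase, rose from 19.6 and 20.3 to 258 and 229 CPM. In both genes the replicates lay close together and the lines far apart.

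TNS4, an adaptor of focal adhesions, rose from 11.98 and 11.0 to 97.6 and 84.3 CPM, and TNFRSF11B, the decoy receptor osteoprotegerin, from 17.7 and 17.5 to 107 and 116 CPM. NBEA rose by 2.44 on the log2 scale as counted and DPYSL3 by 1.89. TIMP3, an inhibitor of matrix proteases, rose from 27.0 and 24.99 to 103 and 113 CPM, CA2 (carbonic anhydrase II) from 85.2 and 79.4 to 296 and 289 CPM, and the sulfate transporter SLC26A2 from 372 and 368 to 1219 and 1363 CPM. These rises were of like size in both resistant libraries. MT2A, a metallothionein, reached 478 CPM in resistant replicate 1 but 235 CPM in replicate 2 (parental 88.5 and 62.1 CPM). RPS28 reached 500 and 258 CPM (parental 96.4 and 69.3), and GRK6, a kinase of G protein-coupled receptors, 183 and 128 CPM (parental 27.5 and 23.6). These 3 genes were higher in replicate 1, the library with the steeper GC trend.

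SLC34A2, the sodium-phosphate transporter NaPi2b, had the deepest graded fall, from 229 and 225 to 18.9 and 16.2 CPM (log2 fold change -3.70 ± 0.08 SE as counted and -3.74 with the GC trend removed, edgeR adjusted p = 4.15e-10 and 2.0e-18). LCN2 (lipocalin 2, an iron carrier of inflammation) fell from 129 and 131 to 17.1 and 14.6 CPM. REC8, a cohesin subunit best known from meiosis, fell from 118 and 107 to 14.7 and 9.2 CPM. The resistant libraries held under 20 CPM of each of these 3 genes. ALDH1L2, the mitochondrial folate dehydrogenase, fell from 118 and 125 to 18.98 and 19.4 CPM, and CEMIP2, a hyaluronan-binding membrane protein, from 84.5 and 82.9 to 13.9 and 14.5 CPM. PAWR, a gene that promotes cell death, fell by 2.25 on the log2 scale, S100A14 by 2.02, and ACSS2, the enzyme that makes acetyl-CoA from acetate, by 1.93. The remaining graded falls that were named, OAS2, BST2, IRF9 and IL1A, belong to interferon and inflammatory signalling and are taken up below.

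**Figure D3:**
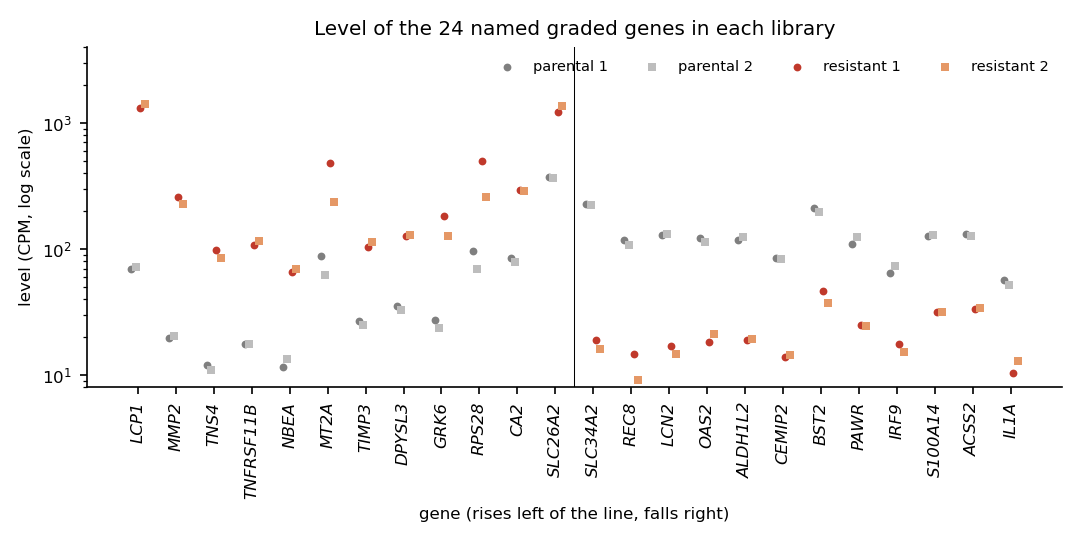
Level in CPM (y axis, log scale) of 12 genes with a graded rise and 12 with a graded fall (x axis) in each of the 4 BRCA1-deficient libraries. No resistant point overlaps the parental points of its gene, which was a condition of the choice. MT2A and RPS28 show the widest gap between the resistant libraries.

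The targets of the drug came first among the genes of known resistance routes. Of 22 tested genes of the PARP family and of ADP-ribose removal, 6 fell and 3 rose (27.3% and 13.6%). Over all genes tested 20.5% fell and 20.8% rose, and every list count below is to be read beside these shares. PARP2 had 106 and 106 CPM in parental libraries and 41.9 and 46.2 CPM in resistant ones (log2 fold change -1.26 ± 0.07 SE as counted and -1.02 with the GC trend removed, edgeR adjusted p = 3.52e-07 and 1.65e-11). PARP1, the main target, fell by less, from 641 and 635 to 425 and 444 CPM. MACROD2, which removes ADP-ribose from proteins, fell from 9.05 and 9.84 to 1.04 and 0.955 CPM. PARP14 and PARP9, which are also interferon-stimulated, fell by 1.49 and 1.28 on the log2 scale. Each of these 5 genes fell in both resistant libraries. The 3 rises did not withstand loss of 1 library: without parental replicate 1 or resistant replicate 2 none passed, and without parental replicate 2 or resistant replicate 1 only 1 did.

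Homologous recombination genes moved in both directions: 7 of 34 rose and 7 fell (20.6% each way, near the 20.8% and 20.5% of all genes tested), and the list's median log2 fold change was -0.0479 as counted and 0.181 with the GC trend removed, beside 0.0264 and 0.0464 over all genes. RBBP8 (CtIP, which starts resection) fell from 70.7 and 74.8 to 39.7 and 47.8 CPM. RAD51AP1, a recombination cofactor, fell from 66.1 and 77.3 to 33.7 and 39.6 CPM, and RAD52 from 18.4 and 17.4 to 12.1 and 11.0 CPM. The resection genes EXO1 and DNA2 fell by 0.59 and 0.69 on the log2 scale. All 5 were thus lower in both resistant libraries. SWSAP1 and ZSWIM7, which together form a Shu complex that assists recombination, both rose, SWSAP1 from 2.57 and 2.41 to 8.68 and 5.61 CPM and ZSWIM7 from 11.2 and 10.3 to 19.3 and 18.2 CPM. The count of rises was 4 without parental replicate 1 and 4 without resistant replicate 2.

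BRCA1, BRCA2 and POLQ did not pass as counted, with log2 fold changes of -0.04, 0.04 and 0.01. With the GC trend removed they were 0.24, 0.38 and 0.30, and each then passed in edgeR (adjusted p = 0.000572, 1.1e-05 and 0.000287). BRCA1 RNA stood at 36.1 and 35.1 CPM in parental and 34.7 and 34.8 CPM in resistant libraries, and the sign of its small difference depended on the treatment of GC content. MAD2L2, a shieldin subunit, was 0.66 higher as counted and -0.06 with the GC trend removed. Of 15 genes of the 53BP1 pathway, MDC1 and TP53BP1 rose (13.3%) and RNF168 fell (6.67%), shares below those of all genes tested. MDC1 went from 57.2 and 60.7 to 83.3 and 94.8 CPM, RNF168 from 53.3 and 56.6 to 34.1 and 35.3 CPM, and TP53BP1 by only 0.22 on the log2 scale. The call for TP53BP1 was lost without either parental replicate and without resistant replicate 2, where its log2 fold change as counted was 0.19, 0.22 and 0.12. SLFN11, whose loss is tied to resistance to DNA-damaging drugs, was low in all 4 libraries, between 1.244 and 1.69 CPM.

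Of 36 genes of the Fanconi anemia pathway and of fork protection, 8 fell and 6 rose (22.2% and 16.7%, near the shares of all genes tested). UBE2T, the ubiquitin-conjugating enzyme for FANCD2, fell from 41.1 and 48.2 to 16.1 and 20.5 CPM (log2 fold change -1.28 ± 0.12 SE as counted and -1.02 with the GC trend removed, edgeR adjusted p = 1.04e-05 and 1.82e-08). Its substrate FANCD2 rose from 62.1 and 60.6 to 80.5 and 85.7 CPM, and as counted it lies in a run of rising neighbours on chromosome 3. The fork-remodelling translocases SMARCAL1 and HLTF also rose, SMARCAL1 from 20.04 and 21.8 to 32.2 and 30.5 CPM and HLTF from 148 and 161 to 219 and 240 CPM. In each pair the resistant libraries lay on the same side of both parental ones. EZH2 and CHD4 fell by 0.43 and 0.51 on the log2 scale, and CHD4 lies in a run of falling neighbours on chromosome 12. Whether fork protection changed was not tested. TIMELESS, a replisome subunit, fell by 0.52.

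Of 17 drug transporters 6 rose and 3 fell (35.3% and 17.6%, beside 20.8% and 20.5% of all genes tested). SLC47A1 (MATE1, an exporter of organic cations) went from 0.296 and 0.344 to 3.38 and 3.35 CPM. ABCC1 rose from 110 and 99.6 to 169 and 159 CPM and ABCC3 from 58.7 and 56.3 to 102 and 87.6 CPM, while ABCC4, which exports nucleotides, fell from 21.4 and 21.3 to 11.1 and 14.1 CPM. ABCA2 reached 82.0 CPM in resistant replicate 1 and 47.5 CPM in replicate 2 (parental 26.1 and 20.7), and its log2 fold change of 1.46 as counted was 0.50 with the GC trend removed. Only 1 of the 3 falls passed without either parental replicate or without resistant replicate 2.

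Cell cycle genes included several clear falls. CDK2, the kinase that drives S phase with cyclins E and A, had 138 and 149 CPM in parental libraries and 56.1 and 55.6 CPM in resistant ones (log2 fold change -1.36 ± 0.07 SE as counted and -1.34 with the GC trend removed, edgeR adjusted p = 1.17e-07 and 4.19e-13). CDK4 fell from 116 and 110 to 82.3 and 82.8 CPM, and CDKN1B (p27) from 43.3 and 54.3 to 28.1 and 29.2 CPM. CDK2, CDK4 and CDKN1B each lie in a run of falling neighbours on chromosome 12, where 51.6% of tested protein-coding genes fell. In the other direction CDKN1C (p57, a cyclin-dependent kinase inhibitor from an imprinted locus) rose from 1.02 and 0.689 to 6.08 and 4.28 CPM and CCND3 (cyclin D3) from 13.8 and 13.0 to 38.9 and 32.9 CPM. Of 23 genes of this list 8 fell and 5 rose (34.8% and 21.7%, beside 20.5% and 20.8% of all genes tested).

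DNA replication genes split almost evenly, with 13 of 35 rising and 11 falling (37.1% and 31.4%). The helicase subunits GINS2 and GINS4 rose by 0.86 and 0.72 on the log2 scale. ORC1, of the origin recognition complex, fell from 46.3 and 46.0 to 25.5 and 26.8 CPM. Among 27 genes of the BCL2 family and caspases 7 fell and 5 rose (25.9% and 18.5%, beside 20.5% and 20.8% of all genes tested). CASP8, the initiator caspase of death receptors, fell from 38.6 and 36.4 to 17.5 and 17.4 CPM, and BCL2L1 (BCL-XL) rose from 229 and 222 to 394 and 344 CPM. Of 24 p53 target genes 8 fell (33.3%) and 4 rose (16.7%). The falls numbered 5 without parental replicate 1 and 3 without parental replicate 2. TP53INP1 rose from 26.9 and 28.2 to 54.6 and 58.5 CPM, and GDF15 fell from 6.68 and 5.02 to 3.53 and 2.23 CPM.

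**Figure D4:**
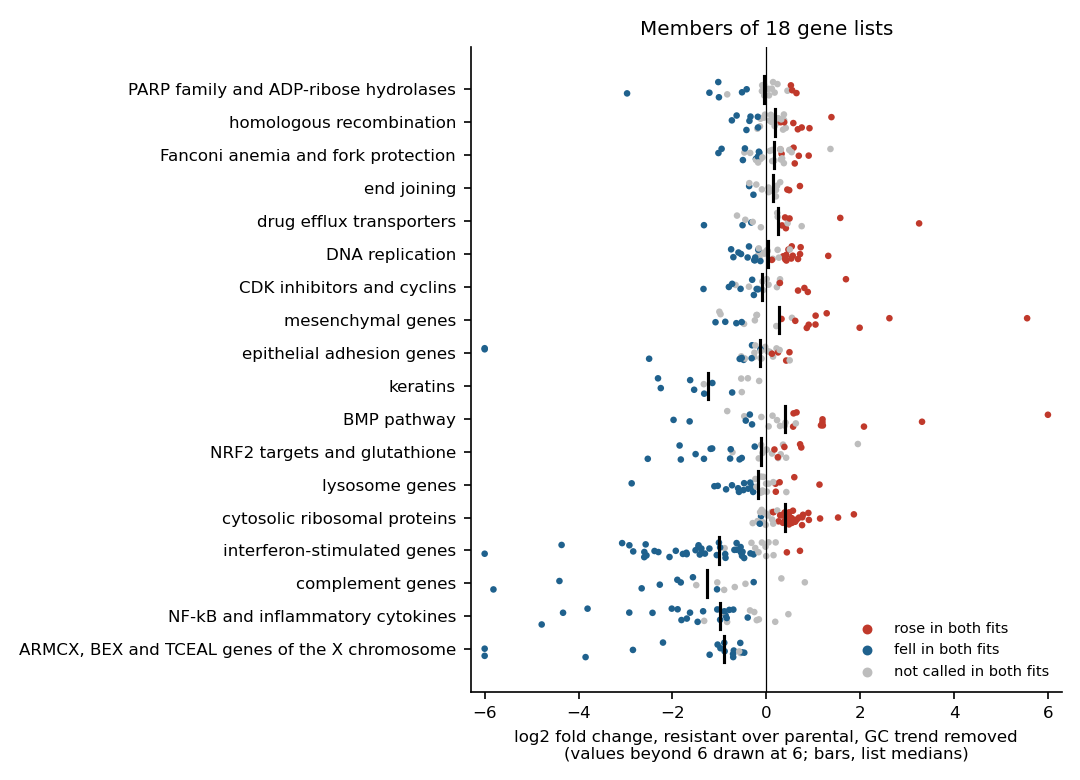
Each point is a tested member of 1 of 18 gene lists (y axis), at its log2 fold change of resistant over parental cells with the GC trend removed (x axis, values beyond 6 drawn at 6), and black bars are list medians. Interferon-stimulated, complement and NF-kB genes lie mostly left of 0 and ribosomal protein genes mostly right of it, while repair lists straddle 0.

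Of 29 genes of the epithelial adhesion list 9 fell (31.0%) and 4 rose (13.8%). Only 1 rise was left without parental replicate 2 or without resistant replicate 1. EHF, an ETS factor of epithelia, had 157 and 161 CPM in parental libraries and 0.756 and 1.16 CPM in resistant ones (log2 fold change -7.34 ± 0.15 SE as counted and -7.26 with the GC trend removed, edgeR adjusted p = 1.73e-10 and 7.26e-18). Its relative ELF3 fell from 16.8 and 14.3 to 4.14 and 3.35 CPM. DSP (desmoplakin) fell from 866 and 857 to 505 and 528 CPM, whereas CDH1 (E-cadherin) did not pass, at 54.4 and 56.8 CPM in parental and 48.2 and 53.3 CPM in resistant libraries. Keratins moved one way: 7 of 12 fell (58.3%) and none rose. KRT8 went from 2767 and 2665 to 1861 and 1432 CPM and KRT18 from 2431 and 2339 to 1264 and 1131 CPM. Falls of keratins numbered 4 without either parental replicate or without resistant replicate 2.

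Of 22 mesenchymal genes 10 rose and 4 fell (45.5% and 18.2%). SNAI2 (Slug, a repressor of epithelial genes) rose from 1.81 and 1.98 to 8.68 and 10.6 CPM, and CDH2 (N-cadherin) from 130 and 135 to 265 and 286 CPM. TAGLN (transgelin) rose from 88.8 and 86.1 to 255 and 242 CPM and VIM (vimentin) from 79.3 and 80.6 to 146 and 154 CPM. The list did not move as a whole, since FN1 (fibronectin) fell from 9854 and 10000 to 5847 and 5996 CPM, and SPARC and MSN fell by 0.78 and 0.80 on the log2 scale. Among ovarian carcinoma markers, FOLR1 (folate receptor alpha) fell from 11.4 and 12.2 to 1.26 and 0.81 CPM, and LHX1, a factor of kidney and Mullerian duct development, rose from 2.07 and 1.69 to 13.8 and 10.1 CPM.

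Matrix genes were rearranged rather than shifted in 1 direction. Of 23 collagens 9 fell and 6 rose (39.1% and 26.1%). COL1A2 fell from 56.1 and 47.1 to 1.3 and 0.723 CPM, but its partner chain COL1A1 went from 1.88 and 1.55 to 8.46 and 3.62 CPM, a rise that did not pass in both fits without resistant replicate 1. Of 29 integrins and laminins 11 rose and 9 fell (37.9% and 31.0%). ITGB4, the beta-4 integrin of hemidesmosomes, rose from 95.6 and 79.5 to 472 and 277 CPM, and ITGA11, a collagen receptor, from 0.592 and 0.402 to 7.81 and 7.58 CPM. ITGA5, the fibronectin receptor chain, fell from 39.2 and 37.5 to 15.4 and 15.4 CPM, and LAMA4 from 78.6 and 72.6 to 22.8 and 22.97 CPM. Among 30 proteases and inhibitors 10 rose and 9 fell (33.3% and 30.0%). Beside MMP2 and TIMP3, the secreted protease ADAMTS12 fell from 115 and 116 to 5.37 and 5.26 CPM. Protease falls numbered 5 without parental replicate 2.

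Signalling genes showed a rise of the inhibitors of differentiation, which are targets of BMP signalling. ID3 rose from 0.724 and 0.488 to 8.79 and 6.59 CPM, ID4 from 4.31 and 5.51 to 18.5 and 17.6 CPM, and ID1 from 8.46 and 9.01 to 32.2 and 22.2 CPM. The ligand BMP4 rose from 22.1 and 18.9 to 53.3 and 48.5 CPM. Of 25 BMP pathway genes 10 rose and 5 fell, and the list's median log2 fold change was 0.492 as counted and 0.392 with the GC trend removed. BAMBI, a decoy receptor, was among the falls, from 3.26 and 2.78 to 1.12 and 0.868 CPM.

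Of 26 feedback genes of ERK signalling 10 rose and 7 fell (38.5% and 26.9%, beside 20.8% and 20.5% of all genes tested). DUSP1, a MAP kinase phosphatase, rose from 13.9 and 13.9 to 39.3 and 35.5 CPM, SPRY4 from 43.7 and 40.8 to 111 and 110 CPM, and EGR1 from 2.99 and 2.98 to 7.42 and 5.38 CPM. DUSP1, SPRY4 and EGR1 all lie on chromosome 5, in stretches described below where many neighbours also rose. DUSP4 fell from 39.7 and 38.8 to 19.2 and 16.3 CPM. Among receptors INSR (the insulin receptor) rose from 6.22 and 6.08 to 27.8 and 24.9 CPM, and FGFR1 from 4.84 and 5.34 to 15.0 and 14.3 CPM. Their ligands went both ways: FGF18 rose from 53.8 and 51.2 to 171 and 138 CPM and FGF5 fell from 32.5 and 32.0 to 3.92 and 4.54 CPM. Of 27 ligands 11 fell and 5 rose (3 rose without parental replicate 2 or resistant replicate 1), and of 30 receptors 6 rose and 3 fell. CCN2 rose from 953 and 942 to 1796 and 1718 CPM while its relative CCN1 fell from 694 and 699 to 425 and 428 CPM. Both are classical YAP targets, a list in which 6 of 24 genes rose and 7 fell. Of 39 semaphorins, ephrins and their receptors 12 fell and 9 rose (30.8% and 23.1%). The co-receptor NRP2 fell from 73.0 and 71.8 to 21.4 and 23.7 CPM, SEMA3E from 33.2 and 36.2 to 6.55 and 7.87 CPM, and the receptor PLXND1 rose from 46.1 and 43.0 to 203 and 150 CPM.

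Of 29 NRF2 target and glutathione genes 12 fell (41.4%) and 5 rose (17.2%). The rises numbered 2 without parental replicate 2 and 3 without resistant replicate 1. MGST1, a microsomal glutathione transferase, fell from 370 and 375 to 80.2 and 89.0 CPM (log2 fold change -2.14 ± 0.07 SE as counted and -1.82 with the GC trend removed, edgeR adjusted p = 7.59e-09 and 3.25e-16). FTL, the ferritin light chain, fell from 801 and 784 to 341 and 333 CPM, and the heavy chain FTH1 went from 41.2 and 36.5 to 85.1 and 51.0 CPM. GSTM3 fell by 1.34 on the log2 scale. Of 30 lysosome genes 13 fell (43.3%) and 5 rose (16.7%). CTSS (cathepsin S) fell from 26.0 and 27.8 to 3.1 and 2.95 CPM and NPC2 (cholesterol export) from 81.0 and 76.3 to 34.4 and 36.3 CPM. CTSD rose from 50.9 and 37.1 to 230 and 138 CPM. Lysosomal rises numbered 3 without parental replicate 2 or resistant replicate 1.

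GLDC, the glycine cleavage enzyme, fell from 12.8 and 12.1 to 1.66 and 2.0 CPM, the largest fall among 18 one-carbon enzymes. Of these 18 genes 4 fell and 3 rose (22.2% and 16.7%). The count of rises there was 1 without parental replicate 2. Metallothioneins rose in 4 of 8 cases, and MT1A fell, from 6.65 and 4.42 to 0.648 and 0.897 CPM, while MT1X rose from 3.32 and 2.78 to 17.4 and 13.1 CPM. These genes are near-identical copies on chromosome 16, so reads may be divided among them. Of 40 genes of oxidative phosphorylation 16 rose (40.0%) and 6 fell (15.0%), and rises numbered 10 without parental replicate 2. NDUFA2, a complex I subunit, rose from 21.0 and 16.5 to 54.6 and 42.3 CPM.

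Targets of interferon signalling were mostly lower in the resistant cells. Interferons signal through the JAK kinases to a complex of transcription factors, STAT2 and IRF9 among them, that binds interferon response elements in target promoters. Of 51 interferon-stimulated genes 39 fell and 2 rose (76.5% and 3.92%), 26 of the 39 at least 2-fold, and the list's median log2 fold change was -1.28 as counted and -1.01 with the GC trend removed. Of 24 interferon receptors, kinases and factors 8 fell (33.3%) and none rose. Their median log2 fold change was -0.111 as counted and -0.123 with the GC trend removed. Of the factors that bind these elements, IRF9 fell from 64.8 and 72.8 to 17.8 and 15.3 CPM and STAT2 from 67.6 and 66.2 to 39.0 and 42.5 CPM. The receptor chain IFNAR1 did not pass as counted, at 44.0 and 40.4 CPM in parental and 39.9 and 45.8 CPM in resistant libraries. Of 18 sensors of nucleic acid 5 fell (27.8%, beside 20.5% of all genes tested) and 3 rose, with a median log2 fold change of -0.109 as counted and -0.0509 with the GC trend removed. IFI16 fell from 53.8 and 52.2 to 6.59 and 7.98 CPM and IFIH1 (MDA5) from 74.5 and 74.9 to 35.1 and 34.0 CPM, and the DNA sensor CGAS fell from 47.1 and 52.9 to 29.3 and 29.2 CPM.

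Among the effectors, OAS2, which makes the activator of RNase L, fell from 122 and 114 to 18.4 and 21.1 CPM, and BST2 (tetherin) from 210 and 196 to 46.5 and 37.2 CPM. IFI6 fell from 57.4 and 48.6 to 7.56 and 7.52 CPM and IFI27 from 41.4 and 34.5 to 6.26 and 6.51 CPM. ISG15 was an exception, with a rise from 11.9 and 8.63 to 40.1 and 17.2 CPM, a log2 fold change of 1.47 as counted and of 0.44 with the GC trend removed, and its transcript GC content is 64.1%. IFITM2 also rose, from 15.8 and 12.5 to 29.7 and 28.2 CPM. Rises numbered 1 without parental replicate 2 or resistant replicate 1.

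The interferon response element was sought as 2 copies of GAAA with any 2 bases between them, on either strand, in the 250 bases before each start. It was present in 2.34% of 11452 tested promoters and in 59.5% of the 42 promoters of the list (25). It was present in 19 of the 31 listed promoters whose gene fell (61.3%) and in 6 of the 11 whose gene did not (54.5%). Outside the list 243 promoters held the element, and of their genes 45 rose and 65 fell, with a median log2 fold change of -0.00102 with the GC trend removed. IFI44L (chr1:78620198-78620447, plus strand) and RTP4 (chr3:187368135-187368384, plus strand) are printed because they fell furthest among listed genes whose promoter holds the element, and each holds 2 copies, in capitals below (RefSeq, GRCh38.p14).
IFI44L: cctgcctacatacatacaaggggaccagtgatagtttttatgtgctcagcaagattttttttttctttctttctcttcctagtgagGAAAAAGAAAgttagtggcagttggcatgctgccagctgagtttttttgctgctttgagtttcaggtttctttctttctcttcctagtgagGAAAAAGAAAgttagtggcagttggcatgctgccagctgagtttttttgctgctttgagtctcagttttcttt
RTP4: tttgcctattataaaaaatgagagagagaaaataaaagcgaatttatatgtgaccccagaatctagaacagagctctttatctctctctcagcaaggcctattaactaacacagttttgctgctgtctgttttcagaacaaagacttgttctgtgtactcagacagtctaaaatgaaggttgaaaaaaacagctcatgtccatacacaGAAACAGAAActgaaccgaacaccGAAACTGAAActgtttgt
IFI44L went from 45.1 and 45.6 to 1.55 and 1.91 CPM and RTP4 from 1.02 and 1.21 to 0.144 and 0.116 CPM. A match of letters is a description and no evidence of binding.

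Of 16 complement genes 9 fell (56.2%) and none rose, and the list's median log2 fold change was -1.27 in both fits. C3, the central component, fell from 125 and 125 to 8.28 and 6.39 CPM (log2 fold change -4.10 ± 0.13 SE as counted and -4.41 with the GC trend removed, edgeR adjusted p = 4.87e-09 and 7.26e-18). The membrane regulators that protect cells from complement fell too, CD55 from 35.6 and 38.1 to 8.25 and 8.88 CPM and CD46 from 282 and 288 to 108 and 110 CPM. CLU and CFB fell by 1.74 and 1.60 on the log2 scale. CD47, the signal that restrains macrophages, fell from 268 and 269 to 96.1 and 104 CPM, and CD274 (PD-L1) from 5.86 and 6.08 to 2.48 and 2.75 CPM.

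Of 30 NF-kB and inflammatory genes 20 fell (66.7%) and none rose. The chemokine CXCL8 (interleukin 8) fell from 216 and 225 to 55.5 and 57.3 CPM, IL1A from 56.9 and 51.4 to 10.4 and 12.9 CPM, and ICAM1, an adhesion molecule, from 226 and 216 to 93.1 and 84.2 CPM. All were lower in both resistant libraries. Of 23 genes of MHC class I presentation 11 fell and 3 rose (47.8% and 13.0%). The peptide transporter TAP1 fell from 12.5 and 11.6 to 4.97 and 5.41 CPM and B2M from 356 and 395 to 242 and 261 CPM, while the immunoproteasome subunit PSMB10 rose from 2.93 and 3.44 to 18.5 and 9.95 CPM. Class I rises numbered 1 without parental replicate 2 or resistant replicate 1.

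Among chromatin genes the de novo DNA methyltransferases fell and the maintenance enzyme did not pass. DNMT3B fell from 39.2 and 44.8 to 13.1 and 11.9 CPM (log2 fold change -1.75 ± 0.10 SE as counted and -1.88 with the GC trend removed, edgeR adjusted p = 2.12e-07 and 2.35e-12) and DNMT3A from 38.6 and 37.4 to 23.98 and 23.1 CPM. DNMT1 stood at 350 and 338 CPM in parental and 373 and 340 CPM in resistant libraries. UHRF2 and TDG, which act on methylated or oxidised cytosine, fell by 0.94 and 0.91 on the log2 scale. Of 31 genes of DNA methylation and Polycomb 9 fell and 6 rose (3 rose without parental replicate 2). Of 21 SWI/SNF subunits 8 fell, among them ARID2 and SMARCA2 (by 1.01 and 0.93), and 4 rose (2 without parental replicate 2).

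HOX genes, which set position along the body axis, changed in both directions, with 8 of 27 rising and 9 falling (29.6% and 33.3%). HOXB9 rose from 2.11 and 2.47 to 28.2 and 26.3 CPM, HOXB7 from 7.07 and 8.43 to 19.9 and 18.8 CPM and HOXB4 from 5.59 and 6.08 to 13.3 and 13.6 CPM. HOXD4 fell from 9.94 and 9.21 to 3.92 and 4.48 CPM. Of 23 imprinted genes 11 rose (47.8%) and 2 fell (8.7%). The rises numbered 6 without either parental replicate and 7 without resistant replicate 1. MEST, expressed from the paternal allele, fell from 274 and 265 to 103 and 105 CPM. Ribosomal protein genes rose in 34 of 50 cases (68.0%) and fell in 2 (4.0%). The falls numbered 1 without parental replicate 2 and 0 without resistant replicate 1. The list's median log2 fold change was 0.33 as counted and 0.408 with the GC trend removed.

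The changes were not spread evenly over the chromosomes. On chromosome 12, 382 of 740 tested protein-coding genes fell (51.6%) and 29 rose (3.92%), beside 22.2% and 21.4% over all 13999 such genes with a place in the RefSeq order. Falls were also frequent on chromosome 14 (42.5%), chromosome X (36.6%) and chromosome 1 (34.9%). Rises were frequent on chromosome 5 (46.3%, against 10.1% falls) and chromosome 22 (46.8%, against 6.09%). The median log2 fold change with the GC trend removed was -0.41 on chromosome 12 and 0.473 on chromosome 5. In the BRCA1-restored cells the same medians were -0.0127 and 0.126.

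**Figure D5:**
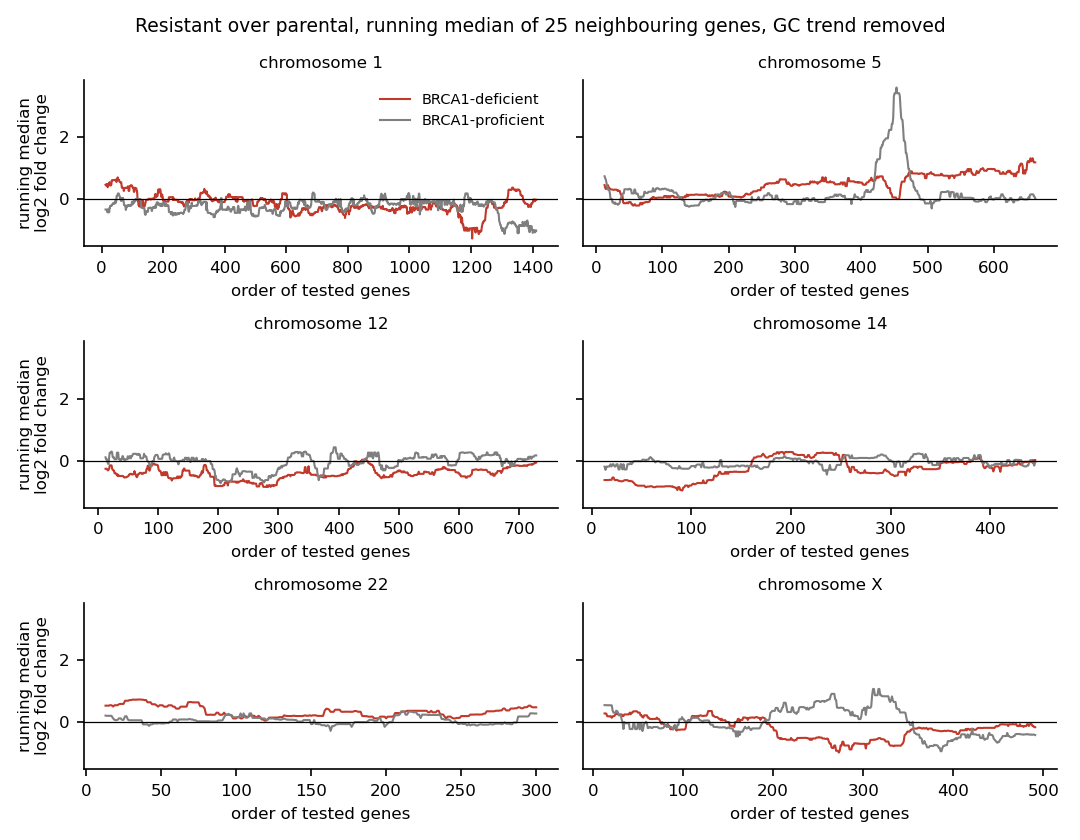
Running median over 25 neighbouring tested protein-coding genes of the log2 fold change of resistant over parental cells with the GC trend removed (y axis), in the order of the genes along 6 chromosomes (x axis, count of tested genes), for BRCA1-deficient and BRCA1-proficient cells. The deficient line lies below 0 along most of chromosome 12 and above 0 along the second part of chromosome 5, and the peak of the proficient line on chromosome 5 lies over the protocadherin cluster, whose genes share exons.

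The change of neighbours was traced as stretches of at least 25 genes in which the running median over 25 genes passed 0.3 on the log2 scale in either direction. This measure was chosen after the chromosome medians were seen and is a description. Stretches of higher RNA held 1299 genes, of which 60.0% rose, and stretches of lower RNA held 1394 genes, of which 60.8% fell. Outside them 19.2% of 11306 genes rose and 19.5% fell. The running median is not defined near the ends of a chromosome, so genes there count as outside even where neighbours changed together. LAMP1 and GRTP1, at the end of a run of falls on chromosome 13, are examples. The stretches held 9.28% and 9.96% of these genes. They were picked by the fold changes that also enter the calls, so high shares inside them follow from the rule.

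On chromosome 5, stretches from NR2F1 to PCDHB5 (195 genes) and from PCDHGB1 to RNF130 (204 genes) had medians of 0.54 and 0.838, and in the latter 162 genes rose and 4 fell. SPRY4 lies in the stretch from PCDHGB1 and EGR1 in the one from NR2F1. With the GC trend removed, the longest unbroken run of rises lay in the stretch from PCDHGB1, 25 genes from RANBP17 to KIAA1191. That run holds NPM1, a nucleolar chaperone, which went from 2391 and 2639 to 3589 and 4143 CPM, and STC2, a secreted glycoprotein, which went from 307 and 298 to 669 and 554 CPM, as well as FGF18 and DUSP1. On chromosome 1 a stretch of 92 genes from PTPRC to HHAT had a median of -0.922, and 63 of its genes fell. UBE2T, CD55 and ELF3 lie in it.

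On chromosome 12 a stretch of 163 genes from DENND5B to SMARCC2 had a median of -0.644, with 104 falls and 5 rises, and it holds CDK2, ARID2, KRT8, KRT18 and ITGA5. TIMELESS, RAD51AP1, ALDH1L2, ACSS3, PAWR and OAS2 lie in other low stretches of the same chromosome. On chromosome 14 a stretch of 145 genes from NDRG2 to NIN had a median of -0.641 and 96 falls, and it holds REC8 and IRF9. PARP2 lies on the same chromosome and was placed in no stretch, but genes near the ends of a chromosome could not be placed in any. Whether its fall is separate from that of the stretch was not tested. On chromosome X a stretch of 149 genes from ZXDA to DOCK11 had a median of -0.632 and 102 falls. It holds COL4A5 and ARMCX2 and the whole family list of ARMCX, BEX and TCEAL genes, 18 tested members of which 16 fell. ARMCX4 fell from 18.4 and 19.4 to 2.05 and 2.4 CPM, ARMCX1 from 17.5 and 14 to 2.27 and 3.47 CPM and TCEAL9 from 57.9 and 63.1 to 22.9 and 25.9 CPM. In the BRCA1-restored cells the median of that stretch was 0.474.

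Lists differed in how many of their members lay in such stretches. Of the 39 interferon-stimulated genes that fell, 9 lay in a stretch of lower RNA and 28 lay outside any. Genes near chromosome ends count as outside. Of the 7 keratins that fell 5 lay in a lower stretch, and of the 9 complement genes 3 did. The same held for 4 of the 8 falls among CDK inhibitors and cyclins, and for 5 of the 8 among Fanconi and fork genes. Of the 6 drug transporters that rose 4 lay in a higher stretch, ABCC1 and ABCA2 among them, and of the 10 ERK feedback genes 3 did. DNA copies were not measured in these files, and what part the place of a gene had in its change was not tested.

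Where the effect of resistance itself differed between the backgrounds was tested by the interaction of edgeR over all 8 libraries. In both fits the difference was higher in deficient cells for 3527 genes (21.7%) and lower for 3067 (18.9%). Passage also differed between the backgrounds (29 and 56 against 10 and 45), so its part cannot be told apart. The following genes were picked from those described above after their values were seen. C3 fell in deficient cells but went from 8.3 and 8.75 to 140 and 117 CPM in the BRCA1-restored cells (log2 difference of effects -8.02, edgeR adjusted p = 3.35e-10). EHF went from 12.7 and 12.1 to 99.8 and 115 CPM there (difference -10.46, adjusted p = 9.96e-11 in edgeR). SLC34A2 went from 677 and 645 to 1884 and 1781 CPM (difference -5.17, adjusted p = 1.72e-10 in edgeR). Each of these 3 genes thus moved one way in deficient cells and the other way in the restored cells.

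CD47 likewise went from 370 and 340 to 708 and 787 CPM in the restored cells (difference -2.50, edgeR adjusted p = 2.66e-08), and CASP8 from 36.9 and 32.0 to 53.1 and 58.2 CPM (difference -1.79, edgeR adjusted p = 3.06e-06). LCP1 was low there, at 10.8 and 9.33 CPM in parental and 7.67 and 7.79 CPM in resistant cells (difference 4.64, edgeR adjusted p = 8.02e-10). Of the 51 interferon-stimulated genes the difference was lower in deficient cells for 38 and higher for 2. For other genes no difference of effects was called as counted: DNMT3B went from 110 and 114 to 31.6 and 31.1 CPM in the restored cells (difference 0.08, edgeR adjusted p = 0.636), CXCL8 from 313 and 290 to 77.4 and 84.9 CPM (difference -0.07, adjusted p = 0.57 in edgeR) and FOLR1 from 25.3 and 29.9 to 3.47 and 2.37 CPM (difference -0.30, adjusted p = 0.476 in edgeR). For CXCL8 the difference with the GC trend removed was 0.18, which passed (edgeR adjusted p = 0.0243), so its direction depended on the fit. A p that misses the threshold does not show that effects were equal. PARP2 fell further in deficient cells (difference -0.70, edgeR adjusted p = 0.000272), and PARP1 fell further in the restored ones (difference 0.44, edgeR adjusted p = 0.00141).

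Some genes changed sides when the GC trend was removed. Opposite calls were made for 191 genes that rose as counted (1.18% of those tested) and 20 that fell as counted (0.123%). SP8, a zinc finger factor with a transcript GC content of 69.4%, went from 29.5 and 33.6 to 53.3 and 54.0 CPM, a log2 fold change of 0.77 as counted and -0.73 with the trend removed. CKB (brain creatine kinase) was at 0.93 and -0.66, TOR4A at 0.66 and -0.70, OXTR (the oxytocin receptor) at 0.65 and -0.70 and CST6 at 0.70 and -0.59. All 5 have a GC content over 67%. In the reverse group CHMP5, USP33, NCKAP1, KTN1 and CD2AP were lower as counted (by 0.17 to 0.25) and higher with the trend removed (by 0.14 to 0.16), and their GC content was under 39%. No direction is given for these 10 genes.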

How the data were processed

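RNA-seq of 8 libraries was deposited by the authors as 1 table of whole-number counts per gene, with no normalization. The submitters' processing notes name Trimmomatic 0.39, featureCounts of Subread 2.0.1, DESeq2 1.24.0 and the build GRCh37. The sources used here do not give the strand setting or the treatment of multi-mapped reads. Samples were grouped by their titles, and 0 columns were left unused.

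Differences were tested on these counts by quasi-likelihood in edgeR 4.0.16 (R 4.3.3, limma 3.58.1), with all 8 libraries in 1 fit, 4 residual degrees of freedom, TMM factors, filterByExpr and Benjamini-Hochberg adjustment at 0.05. A second fit removed each library's GC trend by a natural spline with 5 degrees of freedom on transcript GC content, used as an offset. SE values are the size of the log2 fold change divided by the square root of the quasi-likelihood F statistic. DESeq2 1.42.0 was 1 of the alternatives. CPM are relative to TMM-scaled totals. Of the 32803 genes, 28533 matched RefSeq by symbol, which supplied gene order and promoters from GRCh38.p14. GC content was the median over a gene's GENCODE transcripts and was known for 26731 genes. Tested genes without it received no correction in the second fit, so passing in both fits is no separate check for them. The code was tested on simulated data. Intervals at 95% and the floor of 3 counts cover counting error only.

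Named genes were the 12 switched genes per direction with the highest level and the 12 graded genes per direction with the largest change. Of these alone, the 5 per direction with the largest interaction as counted were also flagged. Named too were up to 4 members per list, up to 5 per direction with opposite calls, members of the longest runs, and a set of repair genes. Some genes that this rule names are not reported here. Further genes, such as CD46, EXO1, DNA2, FN1, STAT2 and DNMT1, were chosen after their values were seen. The members and lists were chosen with earlier results of these data known.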

Additional observations from a re-analysis of the deposited data

Results flagged for a closer look

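Among the switched and graded genes named above, those that passed the interaction test of edgeR as counted were ranked. Given here are the 5 per direction with the largest difference in the effect of resistance between BRCA1-deficient and BRCA1-restored cells. It was higher in deficient cells for KCNA2 (log2 difference 9.29), C4orf48 (6.039), LCP1 (4.644), GRK6 (2.804) and TNFRSF11B (2.492). It was lower for ARMCX2 (-15.88), LIN28B (-14.47), CSTA (-11.47), COL4A5 (-10.65) and PHETA2 (-9.307). Where a group had no or hardly any counts, as for KCNA2, C4orf48, ARMCX2, LIN28B, CSTA, COL4A5 and PHETA2, the fitted difference depends on the prior count and is no bound. ARMCX2, LIN28B and CSTA were at most 0.167 CPM in every BRCA1-restored library. COL4A5 went from 42.6 and 43.1 to 98.6 and 79.1 CPM in the restored cells, and GRK6 from 20.4 and 25.6 to 23.3 and 16.8 CPM.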

How the results depend on the processing

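The 1985 rises of at least 2-fold as counted became 1181 with the GC trend removed, 1182 with 3 degrees of freedom for that trend, 1162 for the replicate block with the GC trend removed and 752 by glmTreat at a log2 fold change of 1. With the trend removed and 1 deficient library left out they numbered 1122, 1051, 1024 and 1157 (parental replicates 1 and 2, then resistant replicates 1 and 2), a setting chosen after seeing the data. Leaving out each library as counted gave 1310 (without resistant deficient replicate 1) to 2219 rises and 1094 to 1287 falls. The 1197 falls became 577 by glmTreat, and the interaction counts of at least 2-fold, 2044 higher and 1637 lower in deficient cells, became 709 and 815. With each library left out, these ranged from 1486 to 2102 and from 1498 to 1869. The counts in both fits, 993 and 954, ranged from 840 to 966 and from 865 to 951 with a deficient library left out. Runs of neighbours numbered 182, and 212 as counted.

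Replicate numbers were not shown to pair the samples (correlation of deviations 0.121 between the deficient groups). The replicate block gave 1957 rises and 1193 falls, and for the interaction 2104 higher and 1638 lower.

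Among the named genes, directions reversed for 18 when the GC trend was removed, with 5 degrees of freedom, with 3, and for the replicate block with the GC trend removed, in that order. The log2 fold changes were then -0.73, -0.75 and -0.75 for SP8, -0.70, -0.71 and -0.70 for TOR4A, -0.66, -0.68 and -0.66 for CKB, -0.70, -0.71 and -0.71 for OXTR, and -0.59, -0.60 and -0.59 for CST6. They were 0.16, 0.16 and 0.16 for CHMP5, 0.15, 0.14 and 0.15 for USP33, 0.15, 0.11 and 0.15 for NCKAP1, 0.15, 0.14 and 0.15 for KTN1, and 0.14, 0.092 and 0.14 for CD2AP. They were 0.24, 0.26 and 0.24 for BRCA1, -0.063, -0.059 and -0.063 for MAD2L2, -0.23, -0.22 and -0.23 for COL4A2, -0.38, -0.38 and -0.39 for RAPGEF3, and -0.95, -0.96 and -0.95 for HDAC7. They were -0.047, -0.041 and -0.047 for MUC16, -0.27, -0.28 and -0.28 for MSLN, and -0.17, -0.18 and -0.18 for CCND1. The cause was not tested. With 2 libraries a group and a spread between the resistant libraries above that of the parental ones, small changes are the least certain.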
